A study of Mus musculus with 8 samples.

Results

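Autophagy and lysosome genes were followed through 4 groups of mouse hearts. The 36 listed genes cover the start of autophagosome formation (initiation), the enzymes and small proteins of the conjugation step, the receptors that bring in cargo, and the lysosome. They were found by gene symbol with 1 probe per gene, and 34 of the 36 were measured among 19938 genes: 10 of initiation, 14 of conjugation, 3 receptors and 7 of the lysosome. The other 2, both listed as receptors, were not analysed here. The groups were wild-type mice (WT) and MAFbx knockout mice (KO), which lack the ubiquitin ligase of striated muscle encoded by Fbxo32. Mice of each genotype had sham surgery or a myocardial infarction (MI) made by permanently tying off the left coronary artery. The hearts with an MI were taken 1 day after the operation, no time is stated for the sham mice, and the tissue was labelled only as heart, with no region given. There were 2 arrays in each group, 8 in all. No source used here gives the strain, sex, age or kind of deletion, or says that the 2 arrays of a group are 2 animals, so the p-values cover the spread between these arrays, which may be technical only.

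Macroautophagy encloses parts of the cytoplasm in a double membrane, the autophagosome, which fuses with a lysosome where hydrolases digest the content. A kinase complex around ULK1 and a lipid kinase complex around Beclin 1 start the membrane, and 2 ubiquitin-like conjugation systems then attach LC3 and GABARAP proteins to it, where receptors such as p62 dock with their cargo. In the heart the route removes damaged mitochondria and protein aggregates and supplies nutrients under stress. The transcription factor TFEB drives many lysosomal genes through a promoter element with the core CACGTG, which is read the same on both strands. The arrays measured mRNA only, which gives no measure of autophagic flux.

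RefSeq promoter windows (mouse build GRCm38.p6) were given for 28 of the 34 members, 33 windows in all, and their 250 bases before the start of the gene were searched on both strands. The core CACGTG was in 6 of the 33 windows (18.2%), those of Lamp1, Ctsd, Atg3, Atg7, Atg5 and Ctsl, against 6.02% of all 32851 windows of that length. The longer form TCACGTG, which contains the core, was in 4 of 33 (12.1%) against 3.13% of all windows. The forkhead core TGTTTAC was in 0 of 33 against 3.17%. Such a match describes the sequence and does not show a site in use. The 3 windows with the most copies of the core are printed below. Capitals mark the core, with any T just before it or A just after it. The windows of the 2 members that changed most after MI, Ctss and Atg10, follow and held none of the 3 motifs. Ctsd, the lysosomal protease cathepsin D, had its window at chr7:142387828-142388077 on the minus strand. Lamp1, a main protein of the lysosomal membrane, had its window at chr8:13158911-13159160 on the plus strand with 4 copies, and Atg3, the enzyme that attaches LC3 to lipid, at chr16:45158579-45158828 on the plus strand. The windows of Ctss (cathepsin S) at chr3:95526536-95526785, plus strand, and Atg10 at chr13:91223988-91224237, minus strand, are in lower case throughout.
Ctsd: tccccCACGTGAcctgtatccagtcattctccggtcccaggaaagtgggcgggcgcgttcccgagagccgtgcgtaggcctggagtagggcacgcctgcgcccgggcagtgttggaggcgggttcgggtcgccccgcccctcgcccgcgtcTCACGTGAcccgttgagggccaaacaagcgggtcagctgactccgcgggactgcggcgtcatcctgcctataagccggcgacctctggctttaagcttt
Lamp1: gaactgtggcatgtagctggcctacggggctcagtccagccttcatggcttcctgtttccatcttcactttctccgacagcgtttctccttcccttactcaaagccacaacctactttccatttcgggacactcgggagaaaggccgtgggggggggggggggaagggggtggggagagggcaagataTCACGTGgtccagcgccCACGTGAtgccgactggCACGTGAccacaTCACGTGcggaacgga
Atg3: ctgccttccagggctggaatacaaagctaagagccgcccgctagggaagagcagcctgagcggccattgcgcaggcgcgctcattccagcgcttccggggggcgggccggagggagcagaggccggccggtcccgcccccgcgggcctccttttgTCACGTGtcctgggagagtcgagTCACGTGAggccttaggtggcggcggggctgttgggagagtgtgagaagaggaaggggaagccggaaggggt
Ctss: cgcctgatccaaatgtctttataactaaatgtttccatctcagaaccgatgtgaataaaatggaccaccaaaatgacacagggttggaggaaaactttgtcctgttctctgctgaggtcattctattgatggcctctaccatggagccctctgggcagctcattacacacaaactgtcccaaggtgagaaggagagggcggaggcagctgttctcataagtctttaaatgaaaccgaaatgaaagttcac
Atg10: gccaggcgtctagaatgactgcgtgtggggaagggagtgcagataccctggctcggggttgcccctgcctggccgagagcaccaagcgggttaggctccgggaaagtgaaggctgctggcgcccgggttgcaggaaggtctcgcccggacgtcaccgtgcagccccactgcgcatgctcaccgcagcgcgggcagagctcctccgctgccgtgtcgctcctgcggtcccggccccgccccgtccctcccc

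Values were log2 expression levels as deposited. Fbxo32 was low in every KO array, at 4.68 and 5.17 in KO sham and 5.14 and 5.46 in KO MI, against 8.76 and 8.79 in WT sham and 8.35 and 8.21 in WT MI. The 12 cardiomyocyte markers averaged between 13.05 and 13.33 on every array, which does not show that only heart was sampled. Hepatocyte markers, which the heart should lack, averaged 6.72 and 7.70 in WT sham and 7.44 and 5.02 in KO sham. On the MI arrays they averaged 4.59 to 4.87. The part of other tissue in the differences between MI and sham, or between the KO sham arrays, was not tested. On the second principal component, with 8.56% of the variance, KO sham array 1 (21.2) and WT MI array 2 (20.2) lay far from their group partners (-15.3 and -0.63). KO sham array 1 touched the members directly, since 32 of 34 (94.1%) were lower there than on KO sham array 2, with a median gap of 0.26 on the log2 scale. Over all genes 51.4% were lower there, and among the 9969 genes above the median level 70.1% were. In the other 3 groups 13, 16 and 20 of the 34 members were lower on array 1. It follows that without KO sham array 1 the KO response to MI was lower for the same 32 members. The median over the 34 went from 0.03 to -0.13. Values without it are given below for some of these members only. Other KO values rest on that array too. Without it the log2 difference went from -0.27 to -0.47 for Pik3c3, from 0.36 to 0.17 for Ctsb and from 0.33 to 0.15 for Ctsl.

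**Figure D1:**
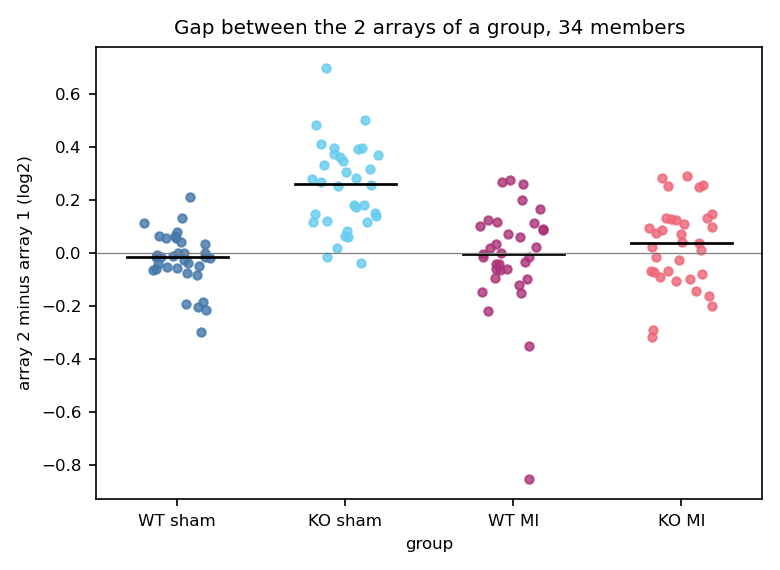
Log2 level on array 2 minus that on array 1 for each of the 34 members (points) in the 4 groups, with the group median as a bar. In KO sham 32 of 34 points lie above 0, with a median of 0.26, while the other groups spread to both sides of 0.

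One day after MI, 6 genes of initiation and conjugation fell in at least 1 genotype, and a cargo receptor and 2 cathepsins rose. In WT hearts 2 members rose and 6 fell, and in KO hearts 3 rose and 4 fell (limma, adjusted p under 0.05 over all genes). The falls were in the initiation genes Ulk1, Ulk2, Atg2a and Atg9a and the conjugation genes Atg10 and Atg4a. The rises were in the cargo receptor Sqstm1 and the cathepsins Ctss and Ctsd. Ulk1, Ulk2, Atg2a, Atg10, Sqstm1 and Ctss passed in both genotypes, each in the same direction, while Atg4a and Atg9a passed in WT and Ctsd in KO. The members called were 23.5% of those measured in WT and 20.6% in KO. Of all genes 28.1% were called in WT (12.3% rose and 15.8% fell) and 20.8% in KO (10.5% rose and 10.3% fell), so these shares lay near the background and are no result about the set. The median log2 difference was -0.05 in WT and 0.03 in KO, against 0.04 and 0.01 for all genes.

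**Figure D2:**
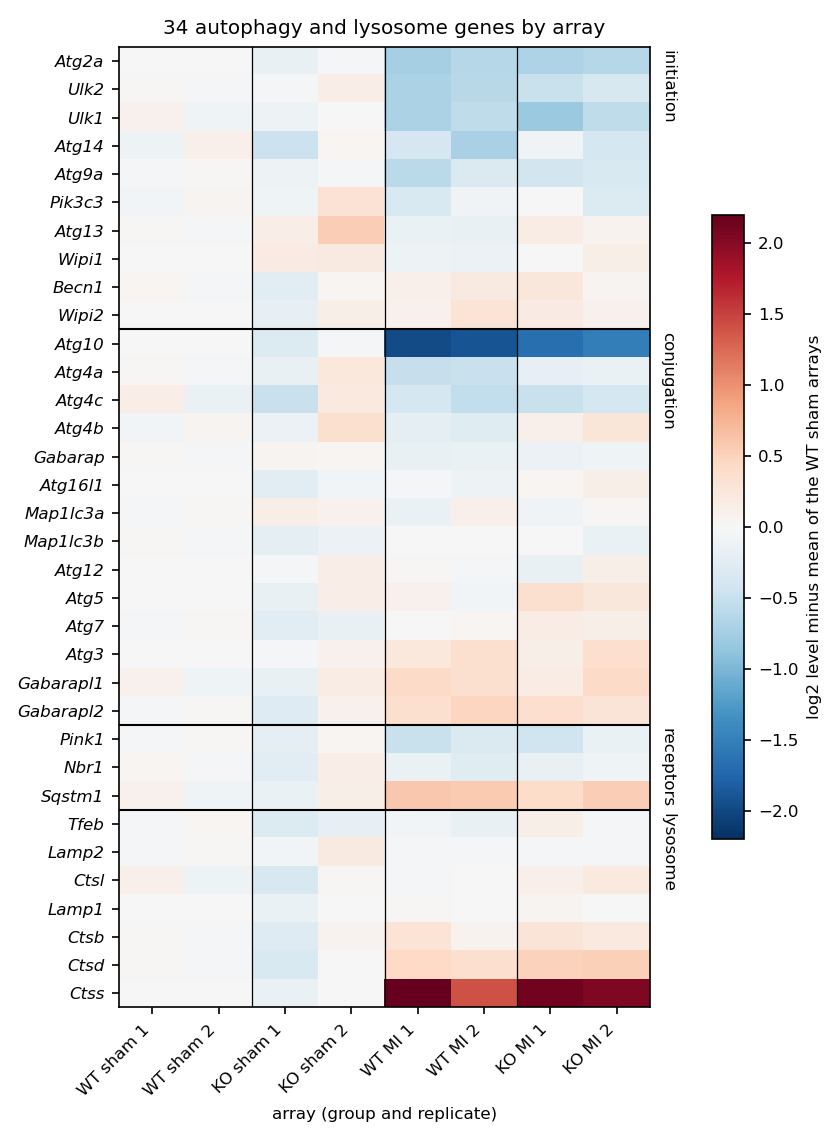
Log2 level of the 34 members on the 8 arrays minus the mean of the WT sham arrays, with genes grouped by role and ordered by their WT response. The MI columns are blue for Atg10, Atg2a, Ulk1 and Ulk2 and red for Sqstm1, Ctsd and Ctss, and KO sham 1 is bluer than KO sham 2 in most rows.

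Of the 10 initiation genes, 4 fell after MI in WT (40% called, against 28.1% of all genes). In KO 3 fell (30%, against 20.8%), and 0 rose in either genotype. With 10 genes these shares are no result about the class. Ulk1, the kinase that starts autophagosome formation, stood at 8.93 and 8.74 in WT sham, 8.73 and 8.85 in KO sham, 8.15 and 8.28 in WT MI and 8.02 and 8.27 in KO MI. Every MI array was below every sham array. Ulk1 was 1.54-fold lower in WT (log2 difference -0.63, SE 0.14, limma adjusted p = 0.00798) and 1.56-fold lower in KO (-0.64, SE 0.14, adjusted p = 0.00971). Ulk2, its close relative, stood at 8.88 and 8.84 in WT sham, 8.84 and 9.01 in KO sham, 8.16 and 8.25 in WT MI and 8.38 and 8.50 in KO MI. Its WT level was 1.57-fold lower after MI (-0.65, SE 0.12, adjusted p = 0.00348) and its KO level 1.4-fold lower (-0.48, SE 0.12, adjusted p = 0.0217). Both ULK kinases were thus lower after MI, with no overlap between MI and sham arrays. Within both genotypes the MI and sham arrays separated in the same direction for 40.1% of all genes.

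Atg2a, a lipid transfer protein that feeds the growing membrane, was at 7.76 and 7.76 in WT sham, 7.59 and 7.73 in KO sham, 7.04 and 7.14 in WT MI and 7.09 and 7.13 in KO MI. After MI it was 1.59-fold lower in WT (-0.67, SE 0.12, adjusted p = 0.00234) and 1.47-fold lower in KO (-0.55, SE 0.12, adjusted p = 0.00941). Atg9a, a membrane protein of the vesicles that seed the autophagosome, was at 8.69 and 8.74 in WT sham, 8.60 and 8.68 in KO sham, 8.13 and 8.40 in WT MI and 8.31 and 8.38 in KO MI. It fell in WT (1.37-fold, -0.45, SE 0.13, adjusted p = 0.0291), and its KO difference of -0.30 had an adjusted p of 0.157. In the Beclin 1 lipid kinase complex, Becn1 was 0.15 higher in WT and 0.24 higher in KO on the log2 scale, and its catalytic partner Pik3c3 0.20 and 0.27 lower, all short of the threshold (adjusted p from 0.272 to 0.456). Atg14, the subunit that directs this kinase to autophagosome formation, had a log2 difference of -0.54 in WT (adjusted p = 0.0705) and -0.02 in KO, where it was -0.27 without KO sham array 1 (adjusted p = 0.418). The lipid sensors Wipi1 and Wipi2 and the ULK partner Atg13 did not pass either. The median over the 10 genes was -0.33 in WT and -0.25 in KO.

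The falls of Ulk2 and Atg2a in WT passed under every alternative run. The fall of Ulk1 in WT was lost without WT sham array 1 (adjusted p = 0.0813), and that of Atg9a with cyclic loess (0.138) and without WT sham array 1 (0.11), WT sham array 2 (0.158) or WT MI array 1 (0.15). In KO, that of Ulk1 was lost without KO MI array 1 (0.0897), that of Atg2a without either KO MI array (0.0659 and 0.053), and that of Ulk2 without KO sham array 2 (0.0784), without either KO MI array (0.141 and 0.0654) or with the compared groups alone (0.0627). Without KO sham array 1, Ulk1, Ulk2 and Atg2a kept the call in KO.

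Of the 14 conjugation genes 2 fell in WT (14.3% called, against 28.1% of all genes) and 1 in KO (7.14%, against 20.8%), and 0 rose. Atg10 changed most. It encodes the E2-like enzyme that joins ATG12 to ATG5. Its level was 9.32 and 9.31 in WT sham, 9.01 and 9.29 in KO sham, 7.34 and 7.42 in WT MI and 7.66 and 7.80 in KO MI, so the sham and MI arrays lay more than 1 log2 unit apart. It was 3.82-fold lower in WT (log2 difference -1.93, SE 0.13, adjusted p = 1.08e-05) and 2.68-fold lower in KO (-1.42, SE 0.13, adjusted p = 0.000105), and it passed in both genotypes under every alternative. The other parts of the same conjugation system did not pass: Atg12 differed by -0.0009 and -0.07 and Atg5 by 0.02 and 0.31 in WT and KO, and Atg7, the E1-like enzyme shared by both systems, by 0.03 and 0.34 (adjusted p from 0.0619 to 0.997).

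Atg4a, one of the proteases that trim LC3 and GABARAP proteins before conjugation, was at 7.77 and 7.71 in WT sham, 7.57 and 7.97 in KO sham, 7.23 and 7.25 in WT MI and 7.57 and 7.59 in KO MI. In WT it was 1.42-fold lower after MI (-0.50, SE 0.14, adjusted p = 0.0269), and the KO MI arrays overlapped the KO sham arrays (-0.19, SE 0.14, adjusted p = 0.429). That overlap came from KO sham array 1, and without it the KO difference was -0.39 (adjusted p = 0.0688). A second Atg4a probe gave -0.42 in WT and -0.20 in KO. The WT call was lost without any 1 of the 4 WT arrays (adjusted p from 0.0858 to 0.14). Atg4b and Atg4c did not pass in either genotype with all arrays. Without KO sham array 1 the KO difference of Atg4c went from -0.30 to -0.65 and passed (adjusted p = 0.0298), and that of Atg4b from 0.08 to -0.16 (0.473).

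The substrates of the conjugation step, the LC3 and GABARAP genes, did not pass. Gabarap ranged from 12.12 to 12.35. Map1lc3b, which encodes the LC3B protein used as the common marker of autophagosomes, ranged from 10.54 to 10.76, with log2 differences of -0.01 in WT and 0.10 in KO (adjusted p = 0.952 and 0.65, SE 0.12). Gabarapl2 came nearest to a call among these genes, at 10.63 and 10.69 in WT sham, 10.38 and 10.75 in KO sham, 11.01 and 11.13 in WT MI and 11.04 and 10.95 in KO MI. All 4 of its MI arrays were above the sham arrays of their genotype, with differences of 0.41 (adjusted p = 0.0629) and 0.43 (0.0663). Without KO sham array 1 the KO difference was 0.24 (0.259). With cyclic loess both passed (adjusted p = 0.00688 and 0.0219). A second Gabarapl2 probe, far lower at 3.92 to 5.07, gave 0.05 in WT and 0.32 in KO. Gabarapl1 differed by 0.39 and 0.30, and passed in WT with cyclic loess (0.0114).

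Among the 3 receptors, Sqstm1 rose after MI in both genotypes. It encodes p62, which binds ubiquitin-tagged cargo and LC3 and is itself degraded by autophagy. Sqstm1 stood at 11.42 and 11.21 in WT sham, 11.17 and 11.45 in KO sham, 11.91 and 11.89 in WT MI and 11.72 and 11.86 in KO MI, with every MI array above every sham array. After MI it was 1.5-fold higher in WT (log2 difference 0.59, SE 0.14, adjusted p = 0.0118) and 1.4-fold higher in KO (0.48, SE 0.14, adjusted p = 0.0375). The WT call was lost without WT sham array 2 (0.111). The KO call was lost without KO sham array 1 (0.148), without either KO MI array (0.0956 and 0.205), without either WT sham array (0.0572 each), with array weights (0.0655), with the compared groups alone (0.0793), with the replicate block (0.0549) and without both KO sham array 1 and WT MI array 2 (0.14). Nbr1, a receptor related to p62, differed by -0.21 and -0.07. Pink1, the kinase that marks damaged mitochondria for removal, differed by -0.40 in WT (adjusted p = 0.07) and -0.20 in KO.

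The lysosome genes gave the largest rise. Ctss, cathepsin S, a protease abundant in macrophages and other antigen-presenting cells, was at 7.34 and 7.32 in WT sham, 7.18 and 7.33 in KO sham, 9.58 and 8.73 in WT MI and 9.46 and 9.39 in KO MI. After MI it was 3.56-fold higher in WT (log2 difference 1.83, SE 0.23, adjusted p = 0.000307) and 4.50-fold higher in KO (2.17, SE 0.23, adjusted p = 0.000203). The calls held under every alternative, and without WT MI array 2 the WT difference was 2.26. Ctsd, cathepsin D, was at 11.47 and 11.41 in WT sham, 11.10 and 11.45 in KO sham, 11.87 and 11.81 in WT MI and 11.94 and 11.95 in KO MI, with all MI arrays above all sham arrays. It was 1.60-fold higher in KO (0.68, SE 0.14, adjusted p = 0.00738), and its WT difference of 0.40 had an adjusted p of 0.0568. The WT difference passed without either KO sham array (0.40, adjusted p = 0.0197 each) and with KO sham array 1 and WT MI array 2 both left out (0.43, 0.0381). Without KO sham array 1 the KO difference was 0.50 (adjusted p = 0.0292), and the KO call was lost without KO MI array 2 (0.0527).

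The other lysosome members did not pass. Ctsb (cathepsin B) differed by 0.19 in WT and 0.36 in KO and Ctsl (cathepsin L) by -0.02 and 0.33, with adjusted p from 0.134 to 0.945. The membrane proteins Lamp1 and Lamp2 kept within 0.11 of 0 in both genotypes. Tfeb, which encodes the transcription factor itself, was at 7.46 and 7.54 in WT sham, 7.19 and 7.32 in KO sham, 7.44 and 7.34 in WT MI and 7.63 and 7.48 in KO MI. Its MI arrays lay below the sham arrays in WT (-0.11) and above them in KO (0.30), with neither difference nor their contrast past the threshold.

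Many leukocyte markers rose in the same hearts as Ctss, where 12.3% of all genes rose in WT and 10.5% in KO. Of 13 measured monocyte and macrophage markers 7 rose in each genotype (Itgam, Lyz2, Cd14, Ccr2, Fcgr1, Msr1 and Cd68), and the mean over the 13 was 6.70 to 7.07 on the sham arrays, 8.09 to 8.56 in WT MI and 8.27 to 8.35 in KO MI. The macrophage markers Adgre1, Csf1r, Mrc1, C1qa, C1qb and Cx3cr1 did not pass. Of 11 neutrophil markers 11 rose in WT and 10 in KO, with list means of 4.15 to 4.34 in sham, 8.80 to 9.37 in WT MI and 7.89 to 8.17 in KO MI. Their part in the rises of Ctss, Ctsd and Sqstm1 was not tested. Some markers of other heart cells fell beside the members that fell, while most in several lists were not called. Of all genes 15.8% fell in WT and 10.3% in KO. Of 12 cardiomyocyte markers 4 fell in WT and 2 in KO, of 7 smooth muscle and pericyte markers 6 and 3, and of 7 endothelial markers 2 and 3. Of 8 fibroblast markers 4 fell in WT, and 1 rose and 1 fell in KO. Of 5 hepatocyte markers, which the heart should lack, 4 fell in WT and 1 in KO. The part of these cell types in the falls was not tested. In RNA from whole tissue, fewer cells of a type and less RNA per cell cannot be told apart.

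**Figure D3:**
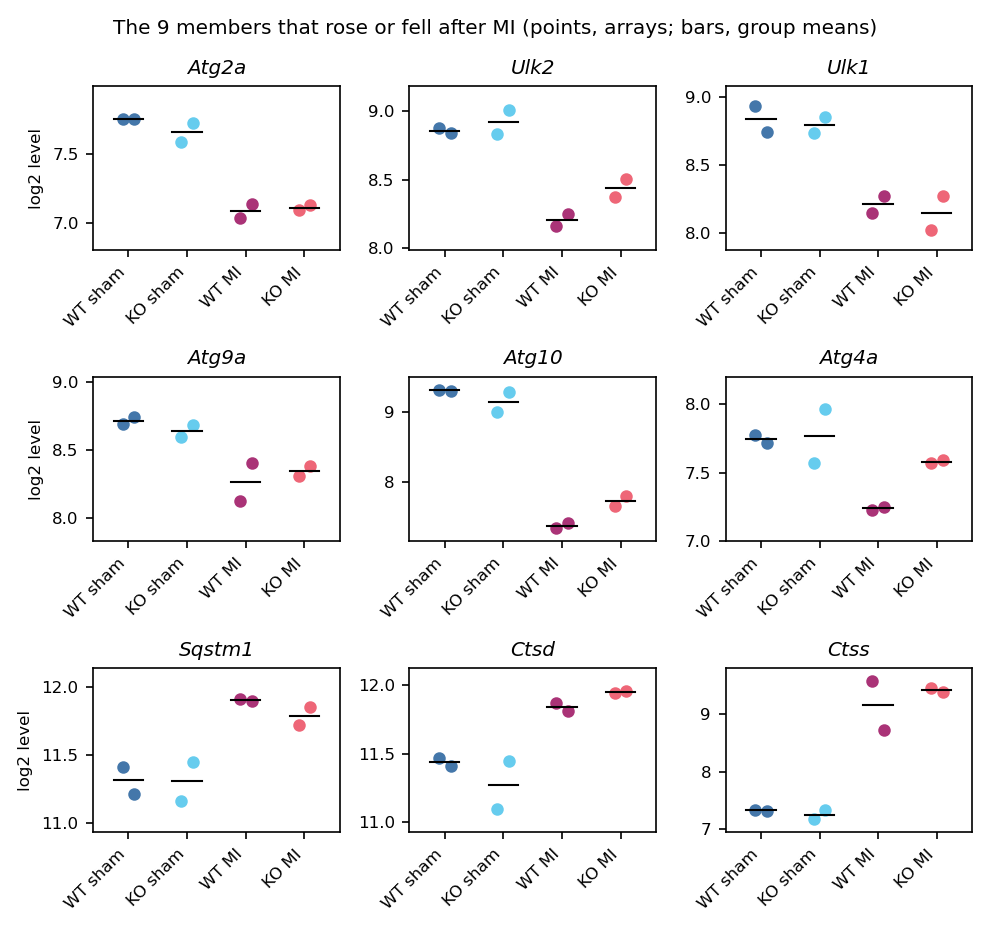
Log2 levels of the 9 members that rose or fell after MI in at least 1 genotype, with 1 point per array, a bar for the mean of each group of 2 arrays, and a separate vertical scale in each panel. MI points lie below sham points for Ulk1, Ulk2, Atg2a, Atg9a and Atg10 and above them for Sqstm1, Ctsd and Ctss, while Atg4a in KO overlaps.

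The 25 members called in neither genotype had 95% intervals for both MI responses between -0.99 and 0.75 on the log2 scale, so a change of 2-fold or more lay outside the interval of each. Their measured differences ran from -0.54 to 0.43. Of these 25, the WT differences of Atg14, Atg4c, Gabarapl2 and Pink1 passed when either KO sham array was left out (adjusted p = 0.0383, 0.0311, 0.023 and 0.049). The values of the WT arrays are the same there, and only the spread shared by all groups differs.

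A further 126 genes of the pathway were taken from 7 lists, of which 122 were measured. Among them 13 rose and 39 fell in WT (42.6% called), and 15 rose and 19 fell in KO (27.9%). Of all genes 28.1% were called in WT and 20.8% in KO. These shares include genes at low levels. With the lowest genes removed, 5761 of 13292 genes were called in WT and 4468 in KO, against 5609 and 4142 of all 19938. The background share was thus higher among the genes kept. The 7 lists were not compared with genes of like level. How far level accounts for a gap between a list and all genes was not tested. The falls in WT numbered 22 without WT sham array 1 and 25 without WT sham array 2, and in KO the rises and falls numbered 11 and 25 without KO sham array 1, 23 and 10 without KO sham array 2, 8 and 9 without KO MI array 1 and 7 and 8 without KO MI array 2. The 28 upstream regulators, which signal nutrient and energy state to the ULK complex and to TFEB, had the highest share of the 7 lists: 3 rose and 16 fell in WT (67.9%) and 3 rose and 10 fell in KO (46.4%), with medians of -0.59 and -0.35. The count of falls ran from 13 to 17 in WT and from 4 to 12 in KO over the alternatives, with 4 without KO MI array 1, 5 without KO MI array 2 and 12 without KO sham array 1. The stress-induced inhibitors of the mTORC1 kinase did not move one way. On the log2 scale Sesn2 was 1.07 higher in WT (adjusted p = 0.000506) and 0.63 higher in KO (0.013), whereas Sesn3 was 1.34 lower (0.000424) and 0.82 lower (0.00968) and Sesn1 0.67 lower (0.00247) and 0.82 lower (0.00122). Deptor, an inhibitor inside the mTOR complexes, fell by 1.09 in WT (adjusted p = 0.000361) and fell by 0.95 in KO (0.00128). Akt1s1, another inhibitory mTORC1 subunit, rose by 0.58 (0.0125) and 0.69 (0.00737), and the GTPase Rraga, which recruits mTORC1 to the lysosome, rose by 0.42 (0.0395) and 0.51 (0.0215). The rise of Sesn2 in KO was lost without KO sham array 2 or either KO MI array (adjusted p from 0.0618 to 0.0786), and those of Akt1s1 and Rraga and the KO fall of Sesn3 were lost without single arrays too.

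The lysosome beyond the members also held both directions. Of 28 other lysosomal hydrolases and membrane proteins 5 rose and 8 fell in WT (46.4% called, against 28.1% of all genes). In KO 6 rose and 3 fell (32.1%, against 20.8%). Cd63, a membrane protein of late endosomes and lysosomes, was higher on the log2 scale by 1.26 in WT (adjusted p = 5.54e-05) and 1.37 in KO (6.1e-05), and the protease Ctsz by 1.19 (0.000641) and 1.59 (0.000217). Naglu, which degrades heparan sulfate, rose in KO by 0.98 (0.00112), with a WT difference of 0.37 (0.0787). Many of the leukocyte markers given beside Ctss rose in the same hearts, and their part in these rises was not tested. In the other direction went Mcoln1, the calcium channel of the lysosome, at -0.79 in WT (0.00114) and -0.71 in KO (0.00305), Gaa, the lysosomal enzyme that degrades glycogen, at -0.76 (0.00261) and -0.44 (0.0463), and Smpd1, acid sphingomyelinase, at -0.64 (0.00485) and -0.43 (0.0419). The KO falls of Gaa and Smpd1 were lost without either KO MI array, without KO sham array 2 and without either WT sham array (adjusted p from 0.0787 to 0.23), and that of Gaa also without either WT MI array (0.0594). The falls in WT numbered 3 to 5 without any 1 of the WT arrays. In KO the rises and falls numbered 5 and 5 without KO sham array 1 and 10 and 1 without KO sham array 2, and 1 fall was called without a KO MI or WT sham array.

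Of 17 subunits of the V-ATPase, the pump that acidifies the lysosome, 2 rose and 4 fell in WT (35.3% called, against 28.1% of all genes). In KO 3 rose and 0 fell (17.6%, against 20.8%). Those that rose belong to the cytosolic V1 sector: Atp6v1h by 1.13 on the log2 scale in WT (adjusted p = 0.000983) and 0.94 in KO (0.00429), Atp6v1b2 by 0.63 (0.00474) and 0.57 (0.0119), and Atp6v1a in KO by 0.61 (0.0245), where its WT difference was 0.21 (0.374). The membrane subunits Atp6v0a2 (-0.83, 0.00115) and Atp6v0a1 (-0.57, 0.0114) and the V1 subunit Atp6v1d (-0.50, 0.015) fell in WT, and their KO differences were -0.26, -0.25 and -0.07. A second Atp6v0a2 probe gave -0.06 in WT. The call of Atp6v1a in KO was lost without KO sham array 1 (adjusted p = 0.112) or KO MI array 1 (0.173), that of Atp6v1b2 in KO without either KO MI array (0.0656 and 0.0743), and the WT falls of Atp6v0a1 and Atp6v1d without WT sham array 1 (0.0846 and 0.131) or other single WT arrays. The count of WT falls was 1 without WT sham array 1 and 2 without WT sham array 2 or WT MI array 2, and the KO rises numbered 6 without KO sham array 2, 1 without KO MI array 1 and 2 without KO sham array 1 or KO MI array 2.

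Of 14 genes of autophagosome fusion with the lysosome 1 rose and 5 fell in WT (42.9% called, against 28.1% of all genes). In KO 1 rose and 2 fell (21.4%, against 20.8%). Stx17, the SNARE protein that autophagosomes carry for fusion, had a log2 difference of -1.0 in WT (adjusted p = 0.00195) and -0.94 in KO (0.0042), and its partner on the lysosome, Vamp8, at 0.67 (0.0126) and 0.79 (0.00755), so the 2 partners moved in opposite directions. Vps41, a subunit of the HOPS tethering complex, was at -0.94 (0.00107) and -0.64 (0.012). Tecpr1, a tethering protein counted under fusion and conjugation, was the 1 gene called among 4 other conjugation genes, at -0.70 in WT (0.00453) against -0.33 in KO (0.139). The Vamp8 rise was lost without WT sham array 1 (0.0968) or WT MI array 2 (0.0665) in WT and without KO MI array 2 (0.0645) in KO, and the KO fall of Vps41 without KO sham array 2 or either KO MI array (0.0529 to 0.0855). Over the alternatives 0 to 3 rose and 3 to 6 fell in WT, and 0 to 1 rose and 1 to 3 fell in KO.

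Among 16 other cargo receptors and mitophagy genes 1 rose and 4 fell in WT (31.2% called, against 28.1% of all genes). In KO 1 rose and 3 fell (25%, against 20.8%). Calcoco1, a receptor for parts of the endoplasmic reticulum and the Golgi, had a log2 difference of -1.15 in WT (adjusted p = 0.0014) and -0.76 in KO (0.0171), and Fundc1, a mitophagy receptor of the outer mitochondrial membrane, at -0.96 (0.00031) and -0.56 (0.00891). Wdfy3, a scaffold for aggregate removal, was at -0.47 (0.0192) and -0.50 (0.0202), and the kinase Tbk1, which phosphorylates cargo receptors, at 0.60 (0.00707) and 0.42 (0.0466). Calls of Wdfy3 and Tbk1 were lost in each genotype without 1 or more single arrays, as were the KO calls of Calcoco1 and Fundc1. Of 16 other initiation and membrane genes 1 rose and 2 fell in WT (18.8% called), and 1 rose and 1 fell in KO (12.5%), both below the shares of all genes. Vmp1, a lipid scramblase of the endoplasmic reticulum needed for autophagosome formation, was at 0.45 (0.0429) and 0.75 (0.0056). Pik3r4, the regulatory subunit of the Beclin 1 lipid kinase, was at -0.59 (0.0123) and -0.42 (0.0666, and 0.0482 without KO sham array 1), Nrbf2, another subunit, at -0.48 (0.0235) and -0.32 (0.136), and the lipid-binding protein Wdr45 at -0.35 (0.0562) and -0.42 (0.0377). The calls of these 4 genes were lost without 1 or more single arrays in each genotype in which they passed. The Nrbf2 probe used and another held identical values, and a further probe gave -0.26 in WT.

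**Figure D4:**
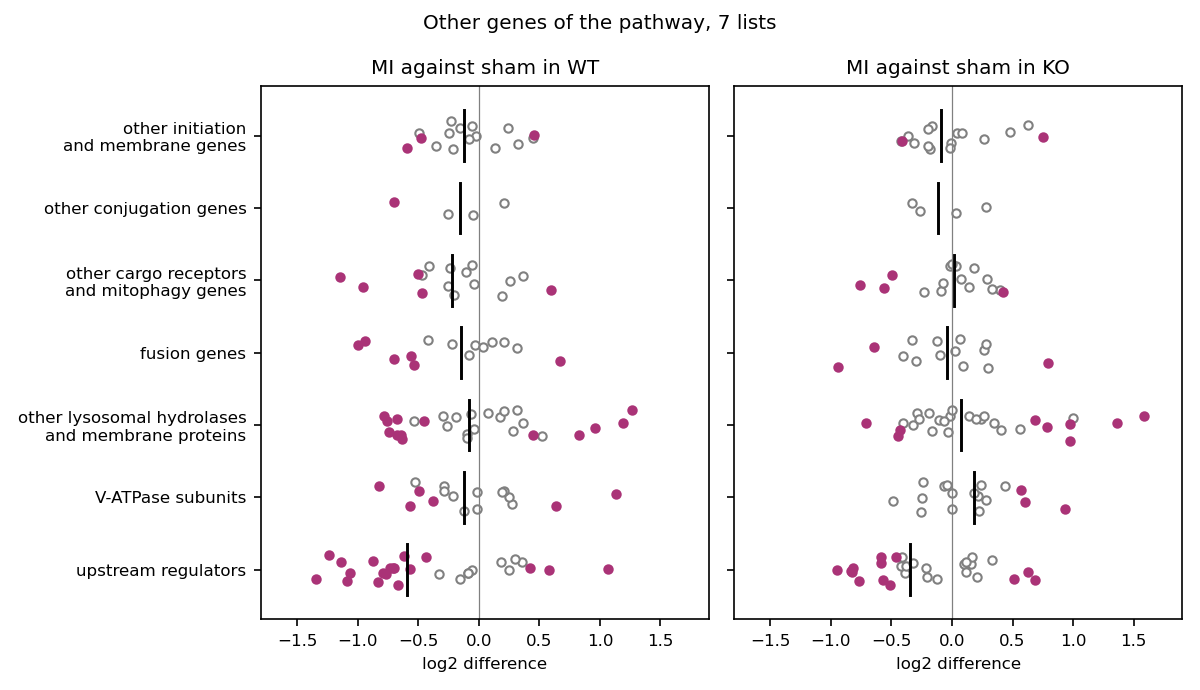
Log2 difference between MI and sham in WT (left) and KO (right) for 122 further genes of the pathway in 7 lists, with filled points for genes past the threshold, open points for the rest and a bar at each median. The upstream regulators lie furthest to the left, with medians of -0.59 and -0.35, and the lysosomal proteins spread to both sides.

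Between genotypes 0 of the 34 members passed in sham hearts, where 0.0301% of all genes did, and 0 passed after MI, where 0.0702% did (limma, adjusted p under 0.05). At an unadjusted p under 0.05 there were 1 and 3 members, against 5.1% and 11.7% of all genes. In sham hearts the smallest p values belonged to Atg13 (log2 difference KO minus WT 0.34, SE 0.15, adjusted p = 0.94, and 0.54 with adjusted p = 0.365 without KO sham array 1), Tfeb (-0.25) and Atg7 (-0.20). After MI they belonged to Atg4b (0.44, SE 0.16, adjusted p = 0.351), Atg10 (0.35, SE 0.13, adjusted p = 0.363) and Atg4a (0.34, SE 0.14, adjusted p = 0.406), 3 genes of the conjugation step, each with both KO MI arrays above both WT MI arrays. Such separation was seen for 24.2% of all genes in that comparison. With the genotype effect averaged over conditions 0 members passed (0.0552% of all genes), 3 had an unadjusted p under 0.05 (7.27% of all genes), and the smallest p values belonged to Atg13 (0.31, SE 0.10, adjusted p = 0.557), Wipi1 (0.19) and Atg4b (0.27). The 95% intervals of the 34 genotype differences ran from -0.66 to 0.67 in sham and from -0.45 to 0.80 after MI, inside a 2-fold change for every member.

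The responses to MI had the same sign in both genotypes for 29 of 34 members, against 75.3% of all genes. For 15 of 34 the MI arrays separated from the sham arrays in the same direction in both, against 40.1% of all genes. Over all genes every MI array was above every sham array for 35% in WT and 28.1% in KO, and below for 31.6% and 27.5%. The comparisons in WT and KO share no arrays. For Tfeb and Atg16l1, a scaffold of the conjugation complex, the arrays separated in opposite directions. These were 5.88% of the members, against 2.85% of all genes, and 2 genes are too few to tell the shares apart. The difference of the responses (KO minus WT) was 0.41 for Tfeb (SE 0.17, adjusted p = 0.608) and 0.29 for Atg16l1 (adjusted p = 0.685). The test of the difference called 0 members and 0% of all genes (limma), with 2 members and 8.21% of all genes at an unadjusted p under 0.05. The smallest p belonged to Atg10 (0.51, SE 0.19, adjusted p = 0.563, with 0.143 to 0.973 over the alternatives), Tfeb and Atg7 (0.32). The median difference over the members was 0.13, against 0.008 for all genes. It was 0.01 without KO sham array 1 and 0.21 without KO sham array 2, so its size rested on the arrays of that group. The member median also depended on the scaling. With all arrays kept it was 0.02 with cyclic loess and 0.13 with median centring. The value for all genes depended on the genes kept, and with the lowest genes removed it was 0.06. In level, 1 of the 34 members lay below the median gene. The 95% intervals ran from -0.62 to 1.15, and for 32 of 34 members lay inside a 2-fold difference.

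**Figure D5:**
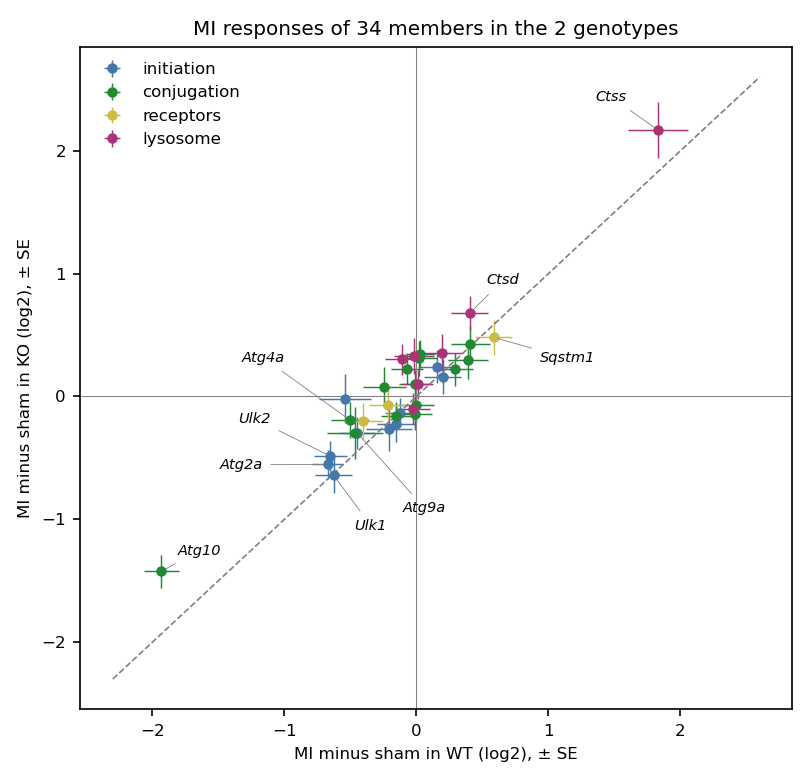
Log2 difference between MI and sham in KO against that in WT for the 34 members, coloured by role, with standard errors of the limma fit and a dashed line of equal response. Ctss lies far above 0 and Atg10 far below 0 on both axes, and 22 of 34 points lie above the line, with 0 past the test of the difference.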

How the data were processed

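Biotin-labelled heart RNA was read on Affymetrix Mouse Gene ST arrays, per the labels. The deposited values are on a log2 scale, made by the authors in Affymetrix Expression Console with RMA, per the submitters' processing notes, which give no versions. RMA as commonly run includes quantile normalization, which reduces a shift shared by most genes. Of 35556 probes, 21789 had 1 gene in the platform annotation, 1621 several, and 12146 were not listed there; 21698 were matched to RefSeq. For 999 genes with more than 1 probe the one with the highest mean was used, which left 19938 genes with no filter. All 8 arrays entered 1 limma 3.58.1 fit of 4 group means (R 4.3.3, 4 residual and 5.57 prior degrees of freedom), two-sided, with Benjamini-Hochberg adjustment over all genes and a threshold of 0.05. For the averaged genotype effect, condition was added to genotype in the model, with 5 residual degrees of freedom. An exact permutation test of 2 arrays against 2 cannot give a p under 0.333.

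The members, lists and alternatives were chosen with earlier results of these data known. The text gives every array for members past the threshold in any contrast, up to 3 rises and 3 falls with the smallest p from each pathway list, the 3 members with the smallest p where 0 passed, and Fbxo32. Lists covered further pathway genes and markers of neutrophils, monocytes and macrophages, cardiomyocytes, fibroblasts, endothelium, smooth muscle and pericytes, lymphocytes, erythrocytes and hepatocytes. The alternatives were cyclic loess, median centring, an intensity trend, array weights, the lowest 33.3% of genes removed, the mean of a gene's probes, a fit of the 2 compared groups alone, a block for the replicate number, each array left out in turn (the array left alone takes its spread from the other groups), and, chosen after seeing the data, KO sham array 1 and WT MI array 2 both left out. On simulated data for 19938 genes the fit made 3 false calls among 19738 unchanged genes. Among simulated responses to MI in WT, it detected 4.48% at a size of 0.5 log2 units, 61.2% at 1 and 97% at 2. A change of 0.5 could thus easily be missed, so a member that did not pass is not shown to be unchanged. Far fewer genes changed in the simulation than were called in the hearts, so these shares need not carry over. Figures used matplotlib 3.10.9.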

Additional observations from a re-analysis of the deposited data

How the results depend on the processing

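Of the member differences recomputed, 3330 stayed on the same side of the threshold, 43 passed newly, 27 were lost and 0 called ones reversed direction. Uncalled differences that changed sign are counted among those that stayed. Of the calls, 4 of 8 in WT (Ulk2, Atg2a, Atg10 and Ctss) and 2 of 7 in KO (Atg10 and Ctss) held under every alternative, as did 28 of 52 pathway calls in WT and 9 of 34 in KO. Members that rose in WT numbered 5 with an intensity trend, 4 with array weights, with the lowest genes removed or with the 2 compared groups alone, and 6 with cyclic loess (2 as reported), and in KO 5 with the lowest genes removed or with cyclic loess (3 as reported). Under cyclic loess 6 members rose and 5 fell in WT, and the WT median turned from -0.05 to 0.08. The KO median turned from 0.03 to -0.13 without KO sham array 1. No scaling moved the share of rises among all calls by over 10 percentage points.

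Leaving out 1 array at a time, members that rose ranged from 1 to 4 in WT and 1 to 7 in KO, and those that fell from 3 to 9 and 1 to 5. The count of rises in WT was 1 without WT sham array 2 and 4 without either KO sham array, and in KO 7 without KO sham array 2 and 1 without KO MI array 2. The falls numbered 3 in WT without WT sham array 1, and in KO 1 without KO MI array 1 and 2 without KO MI array 2. All genes called ranged from 3457 to 6483 in WT (lowest without a WT sham array) and 2246 to 4099 in KO (lowest without a KO MI array), 3 to 34 for genotype in sham, 2 to 11 for genotype after MI, 0 to 3 for the difference of responses and 2 to 9 for the averaged effect. Members called between genotypes stayed at 0 under every alternative.

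All genes called for genotype in sham (6) became 12 with an intensity trend and 3 with the compared groups alone. For genotype after MI (14) they became 63 with the trend, 26 with array weights, 23 with the lowest genes removed, 2 with the compared groups alone and 3 with KO sham array 1 and WT MI array 2 both left out. The difference of responses (0) gave 4 with the trend and 1 with cyclic loess, and the averaged effect (11) gave 4 with both arrays left out.

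The replicate numbers share only a number: deviations of same-numbered arrays correlated at -0.187 to 0.156. With the replicate block the members that rose and fell numbered 2 and 6 in WT and 2 and 4 in KO, the genotype effect after MI gave 5 genes and the averaged effect 3. The causes of these moves were not tested, and 2 arrays per group limit the precision.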

Other observations

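Of 6 lymphocyte markers and 2 erythrocyte markers 0 passed (limma), with 1 of each at an unadjusted p under 0.05 in WT and 0 in KO. On arrays 1 and 2 in turn, the hepatocyte markers averaged 6.72 and 7.70 in WT sham and 7.44 and 5.02 in KO sham, against 4.59 to 4.87 on the MI arrays.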
